A study of Mus musculus with 35 samples.

Results

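Contractile genes are followed here across mouse cells, labelled as reprogramming cells, during reprogramming towards pluripotency. The set holds 10 genes, taken by name from the 21350 genes of the deposited expression table: Acta2, Actg2, Tagln, Cnn1, Cnn2, Myl9, Tpm1, Tpm2, Lmod1 and Myocd. All 10 were present in the table, and all 10 passed the filter on low values that left 13860 genes for testing. Cells were infected with factor combinations labelled OB, OA and ODR, grown in the reprogramming medium iCD1 and sampled at days 1, 6 and 14. What the letters stand for is not spelled out in the labels, while the series text speaks of reprogramming by Oct4 and Kdm2b. The tests used 2 libraries per combination at day 1, 4 OB, 3 OA and 2 ODR libraries at day 6, and 3 per combination at day 14. OB (2 libraries) and ODR (1 library) were also grown to day 6 with the growth factor BMP4 at 10 ng/ml, added at the change to iCD1. Single libraries of ODB and ODDR at day 9, of mouse embryonic stem cells (mESC) and of mouse embryonic fibroblasts (MEF) were used without a test, with MEF as the point of comparison. So was 1 more library of day 9, deposited under the labels of both ODB and ODDR with BMP4 at 10 ng/ml. The labels give no strain, age or sorting, so each infected culture is taken here as measured whole. Neither do they say whether replicates came from separate cultures, so the p-values reflect only how far libraries of a group scatter, a scatter that may be technical.

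Contractile cells such as smooth muscle cells and myofibroblasts build stress fibres from smooth muscle actins and the proteins that bind them. Many of these genes are known targets of serum response factor, which binds CArG boxes together with coactivators of the myocardin family, myocardin itself (Myocd) being the one restricted to smooth and cardiac muscle. Embryonic fibroblasts in culture are known to carry part of this programme, with stress fibres and smooth muscle actin, and to lose mesenchymal gene expression when they are reprogrammed.

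Promoter sequence is shown for the members whose promoter held a CArG box, because that element links the actin-binding genes to serum response factor and Myocd. RefSeq promoters of build GRCm38.p6 were matched for 7 of the 10 members (Tagln, Actg2 and Myocd were not matched). In the 250 bases before the annotated start, both strands were searched for the CArG box, a pair of C, a core of 6 A or T and a pair of G. An exact box stood in 2 of the 7 windows (Cnn2, Myl9), against 1.47% of 32851 promoter windows. With up to 1 G or C allowed in the core, 3 of the 7 held a box (Acta2 in addition), against 8.59% of all windows. Capitals mark these boxes below, 5′ to 3′ on the gene's strand, and a match is a description of the letters only. In Acta2 (chr19:34255374-34255623, minus strand) the boxes began 84 and 34 bases before the start, each with 1 G or C in the core.
Acta2: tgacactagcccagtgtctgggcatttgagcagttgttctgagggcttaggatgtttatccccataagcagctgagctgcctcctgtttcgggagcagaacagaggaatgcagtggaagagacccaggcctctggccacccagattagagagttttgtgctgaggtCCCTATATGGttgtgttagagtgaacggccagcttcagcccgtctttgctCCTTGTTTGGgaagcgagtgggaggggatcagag
In Myl9 (chr2:156775214-156775463, plus strand) they began 161 and 99 bases before the start, the first exact.
Myl9: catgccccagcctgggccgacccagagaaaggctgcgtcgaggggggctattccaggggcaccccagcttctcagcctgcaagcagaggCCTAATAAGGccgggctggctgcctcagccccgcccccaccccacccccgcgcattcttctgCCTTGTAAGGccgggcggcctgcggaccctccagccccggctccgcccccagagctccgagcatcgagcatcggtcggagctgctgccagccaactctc
In Cnn2 (chr10:79988350-79988599, plus strand) the exact box began 56 bases before the start.
Cnn2: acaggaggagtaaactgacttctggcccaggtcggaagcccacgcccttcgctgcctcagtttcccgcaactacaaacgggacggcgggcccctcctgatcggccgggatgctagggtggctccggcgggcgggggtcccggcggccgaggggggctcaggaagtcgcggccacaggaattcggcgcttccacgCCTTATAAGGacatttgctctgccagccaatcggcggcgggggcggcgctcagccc

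Values are the authors' normalized tag counts, whole numbers on a scale with the same ceiling of 18690 in every library, so read depth is unknown and levels are not compared between genes. Acta2 was at that ceiling in MEF and in OB day 1 replicate 2. The library deposited as ODR day 6 replicate 3 and as ODR with BMP4 replicate 2 is the same at all 21350 genes and was left out of both groups, and 1 library serves both labels of BMP4 at day 9. Kdm2b, the demethylase gene named in the series text, was at the ceiling in all OB libraries of days 1 and 6 without BMP4, 4626, 6246 and 4220 in OB at day 14 and at most 460 in ODR. Its paralogue Kdm2a was at the ceiling in the OA libraries except OA day 1 replicate 2 (9294) and the library labelled OA day 14 replicate 2 (721), which goes against its label. Member calls that change without this last library are given beside the result. Of genes specific to other muscle, Ckm was listed at 0 in every library of days 1, 6 and 14, Myod1 reached 1 and the cardiac gene Myh6 reached 4 there. Acta1, the skeletal muscle actin, was 94 to 253 at day 1 and at most 8 at days 6 and 14, against 636 in MEF. The 18 cardiac genes of the marker list summed to between 214 and 1258 in the libraries of days 1, 6 and 14, against 114 in MEF. The fibroblast gene Thy1 was 2347 in MEF, so the MEF label was met by its defining marker. Of the 50-base stretches of each member's longest coding transcript, 7 of 1986 in Acta2 and 1 of 5065 in Myocd also occur in transcripts of other genes, and none did in the other 8 members.

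**Figure D1:**
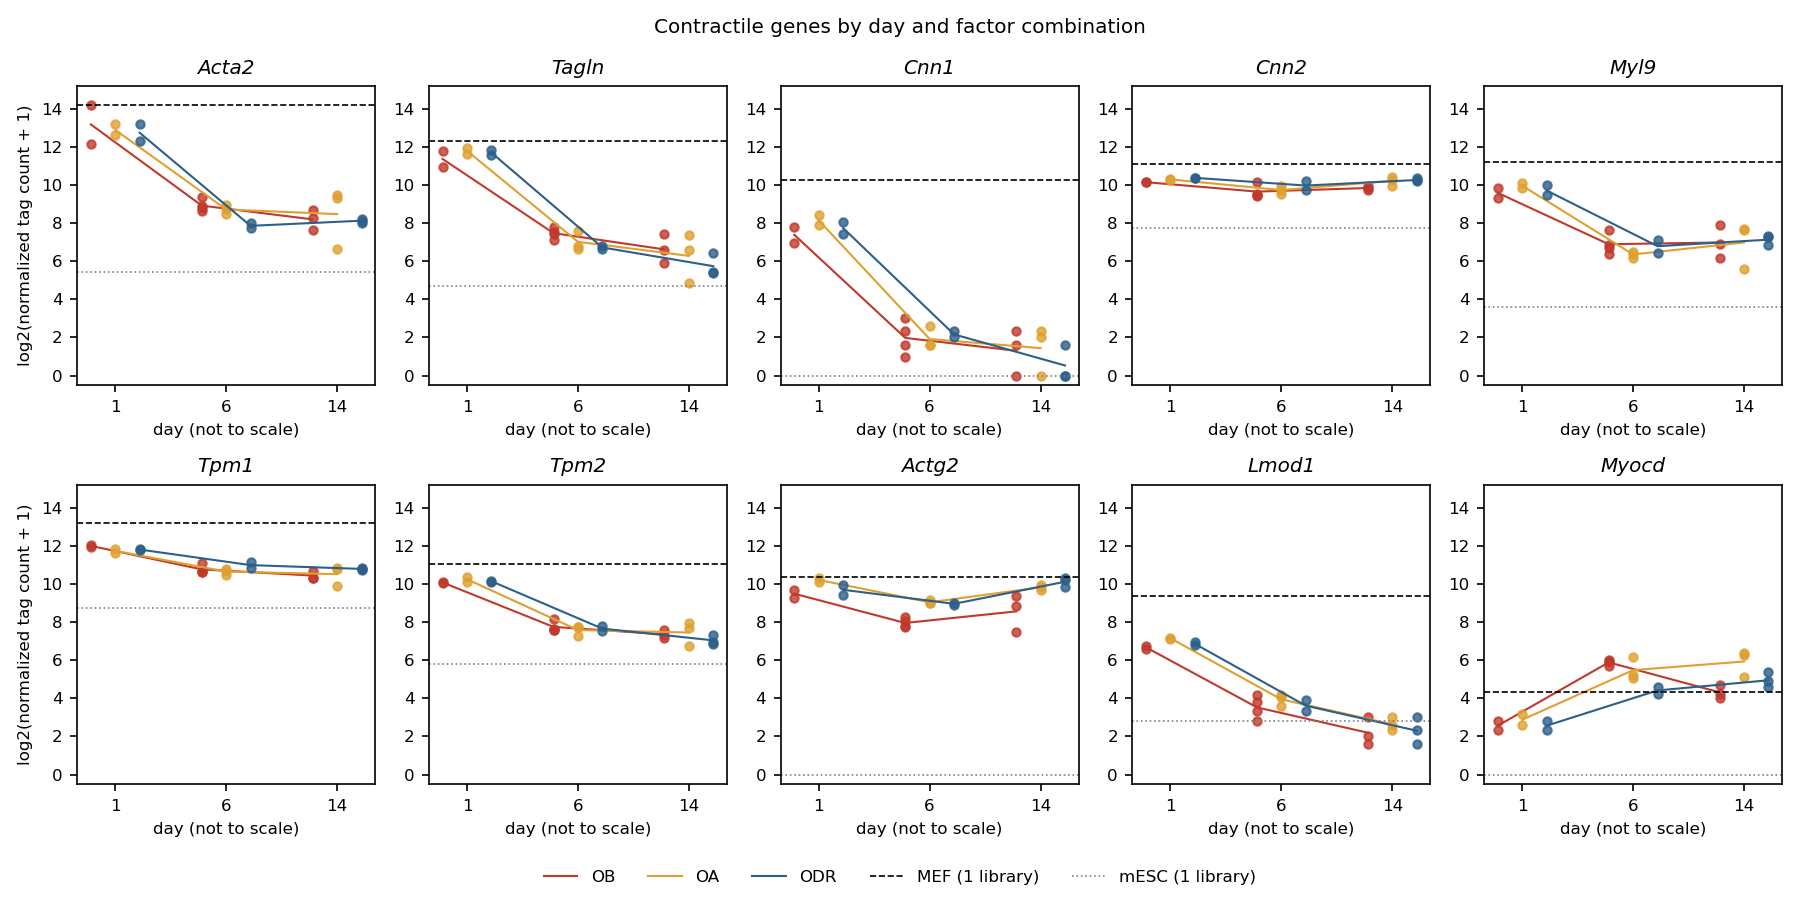
Normalized tag count on the log2(value + 1) scale against day for each member, 1 panel a gene. Points are libraries, lines join the means of OB, OA and ODR, and horizontal lines are the single MEF and mESC libraries. Myl9 lies between 638 and 1086 at day 1 and between 72 and 198 at day 6, and Myocd runs the other way.

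One day into reprogramming most contractile genes stood below MEF, by amounts that differed between genes. Acta2, the smooth muscle alpha-actin, was 4621 and 18690 in OB, 6244 and 9301 in OA and 5077 and 9301 in ODR, against the ceiling in MEF. The OB libraries thus spanned the range of the other combinations, and 1 of them was at the same ceiling as MEF. Tagln, the actin-bundling transgelin, was 2008 and 3489 in OB, 3170 and 3989 in OA and 3008 and 3690 in ODR, against 5072 in MEF. Cnn1, the smooth muscle calponin, was 124 and 224 in OB, 236 and 339 in OA and 170 and 268 in ODR, against 1214 in MEF. Lmod1, a leiomodin that nucleates actin filaments in smooth muscle, was 97 and 106 in OB, 145 and 138 in OA and 109 and 122 in ODR, against 656 in MEF. Myocd was 6 and 4 in OB, 5 and 8 in OA and 6 and 4 in ODR, against 19 in MEF. All day 1 libraries were below MEF for these last genes. With 1 MEF library there is no test, and a gene is counted when every library of the group lies more than 2-fold from MEF. By that count 5 members were lower in OB, 6 in OA and 6 in ODR, against 10%, 10.7% and 9.78% of all genes. Cnn1, Lmod1, Myl9, Tpm1 and Myocd were lower in all 3 combinations, and Acta2 in OA and ODR. At a 3-fold limit 2 members were counted in each combination, and without OB day 1 replicate 2, the library with Acta2 at the ceiling, 8 were counted in OB. The shares of all genes above hold for the 2-fold limit with no library left out. Shares for these other settings are not given, so the counts of 2 and 8 have no background beside them.

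Between day 1 and day 6, 9 members fell in OB and in OA and 7 fell in ODR, and Myocd rose in all 3 combinations. Cnn1 and Myocd are among these counts although each passed the filter on low values only through the groups where it is high. Over all genes tested, 17.1% fell in OB, 17.6% in OA and 12.5% in ODR, and 16.7%, 17% and 12.6% rose. The median log2 fold change of the 10 members was -2.52 in OB, -2.94 in OA and -2.71 in ODR, against medians over all genes of -0.03, -0.02 and -0.03. These values come from limma on log2(value + 1) with Benjamini-Hochberg adjustment over all genes, as do all adjusted p-values here. Whether the change differed between the combinations was not tested. Libraries of day 6 and day 1 did not overlap in 9 members in OB and in 10 in OA and ODR. Over all genes this held for 53.41% in OB, 60.02% in OA and 63.98% in ODR. With cultures taken as measured whole, fewer cells of a type and less RNA per cell cannot be told apart.

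Among the actins, Acta2 lost most of its signal. At day 6 it was 660, 395, 446 and 471 in OB, where day 1 had 4621 and 18690, a log2 fold change of -4.26 ± 0.60 (SE, adjusted p = 3.81e-05). In OA it was 486, 356 and 430 at day 6, against 6244 and 9301 at day 1 (-4.18 ± 0.64, adjusted p = 7.77e-05). ODR had 212 and 252 at day 6, against 5077 and 9301 at day 1 (-4.89 ± 0.70, adjusted p = 7.05e-05). In each combination every day 6 library was below every day 1 library, and the OB estimate rests on which day 1 library is used (-5.27 without replicate 1, -3.25 without replicate 2, the library at the ceiling). Actg2, the gamma-actin of enteric smooth muscle, moved less. It was 303, 268, 212 and 218 in OB at day 6, against 624 and 831 at day 1 (-1.54 ± 0.33, adjusted p = 0.00177). OA had 567, 510 and 505 at day 6, against 1106 and 1281 at day 1 (-1.18 ± 0.35, adjusted p = 0.0151), a call lost without either day 1 library (adjusted p = 0.0504 and 0.109). ODR had 518 and 478 at day 6, against 697 and 990 at day 1, and did not pass the test (-0.74 ± 0.39, adjusted p = 0.178).

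Most proteins that bind and bundle actin fell as well. Tagln was 218, 140, 185 and 174 in OB at day 6, against 2008 and 3489 at day 1 (-3.89 ± 0.53, adjusted p = 2.37e-05). In OA it was 111, 100 and 193, against 3170 and 3989 at day 1 (-4.77 ± 0.55, adjusted p = 4.78e-06), and in ODR 99 and 111, against 3008 and 3690 at day 1 (-4.98 ± 0.61, adjusted p = 1.49e-05). Every day 6 library was thus far below every day 1 library. Cnn1 came down to between 1 and 7 in all 9 day 6 libraries, against 124 to 339 in the 6 day 1 libraries. Its log2 fold change was -5.41 ± 0.72 in OB, -6.23 ± 0.76 in OA and -5.58 ± 0.83 in ODR (adjusted p = 2.01e-05, 7.99e-06 and 0.000109). Because Cnn1 reached 10 only at day 1, it passed the filter through those libraries alone, so the filter favours a fall. With no filter the adjusted p of Cnn1 was 2.94e-05 in OB, 1.18e-05 in OA and 0.000152 in ODR. Cnn2, the calponin that is also made in cells other than muscle, changed little: it was 1132, 719, 692 and 748 in OB at day 6, against 1140 and 1132 at day 1. It passed the test in OB (-0.50 ± 0.18, adjusted p = 0.0418) and OA (-0.56 ± 0.19, adjusted p = 0.0301) and not in ODR (-0.41 ± 0.21, adjusted p = 0.17; 0.0434 with the shared library kept as ODR without BMP4). These Cnn2 calls were lost in 10 of 18 alternatives in OB (adjusted p up to 0.156) and in 5 of 17 in OA (up to 0.157).

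Tropomyosins, which lie along the actin filament, fell by different amounts. Tpm2 was between 154 and 288 in the 9 day 6 libraries, against 1076 to 1328 in the 6 day 1 libraries. Its log2 fold change was -2.33 ± 0.26 in OB, -2.67 ± 0.27 in OA and -2.49 ± 0.30 in ODR (adjusted p = 2.36e-06, 1.06e-06 and 1.18e-05). Tpm1, whose transcripts also serve non-muscle cells, was between 1434 and 2289 at day 6, against 3176 to 4220 at day 1. It changed by -1.23 ± 0.21 in OB (adjusted p = 0.000223), -1.09 ± 0.22 in OA (adjusted p = 0.00103) and -0.82 ± 0.24 in ODR (adjusted p = 0.0193). The ODR call was lost when ODR day 1 replicate 1, day 1 replicate 2 or day 6 replicate 1 was left out (adjusted p = 0.0641, 0.105 and 0.152). Neither tropomyosin overlapped between the days in any combination, as in 53.41%, 60.02% and 63.98% of all genes in OB, OA and ODR.

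Myl9, the regulatory light chain of smooth muscle myosin, fell as well. It was 198, 83, 114 and 103 in OB at day 6, against 638 and 929 at day 1 (-2.70 ± 0.51, adjusted p = 0.000533). OA had 72, 82 and 90, against 922 and 1086 at day 1 (-3.61 ± 0.53, adjusted p = 5.68e-05), and ODR 86 and 140, against 700 and 1008 at day 1 (-2.92 ± 0.58, adjusted p = 0.00135). Lmod1 was 6 to 17 in the 9 day 6 libraries, against 97 to 145 in the 6 day 1 libraries, so that the days did not overlap. The log2 fold change of Lmod1 was -3.15 ± 0.40 in OB, -3.21 ± 0.42 in OA and -3.25 ± 0.46 in ODR (adjusted p = 1.31e-05, 1.91e-05 and 7.35e-05).

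**Figure D2:**
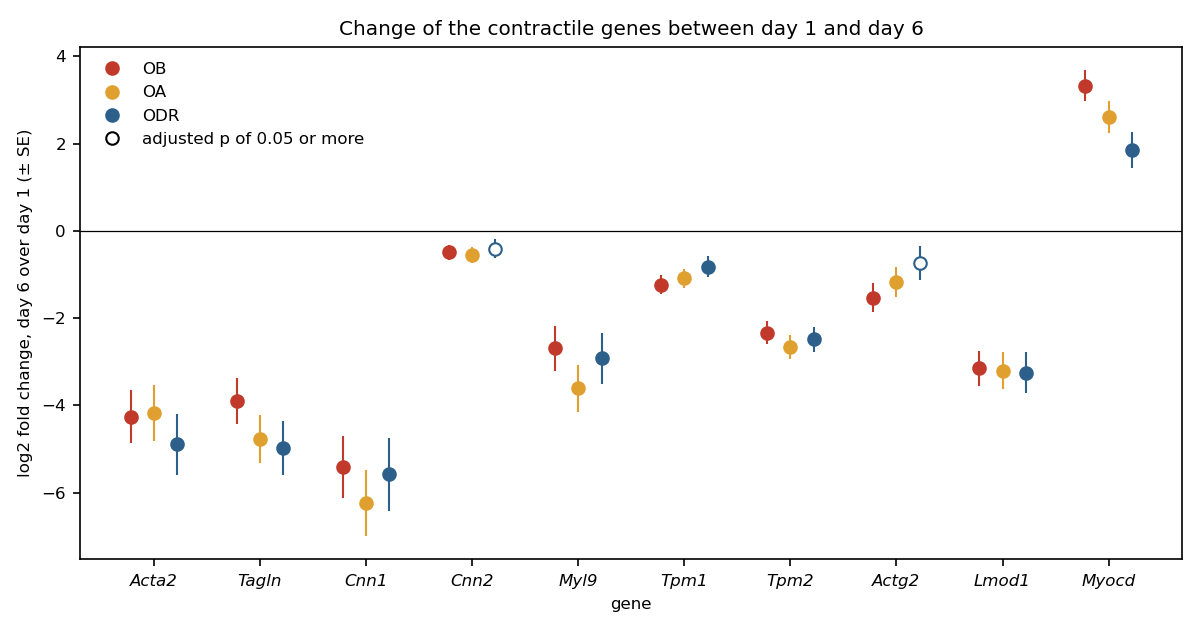
Log2 fold change of each member, day 6 over day 1, for OB, OA and ODR, with SE as bars. Open circles did not pass the test (Cnn2 and Actg2 in ODR), 9 members lie below 0 in each combination and Myocd lies above it.

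Myocd, the coactivator of serum response factor, was the exception. It was 62, 63, 58 and 51 in OB at day 6, against 6 and 4 at day 1 (3.33 ± 0.35, adjusted p = 1.67e-06). OA had 70, 36 and 33, against 5 and 8 at day 1 (2.60 ± 0.37, adjusted p = 4.1e-05), and ODR 18 and 23, against 6 and 4 at day 1 (1.85 ± 0.41, adjusted p = 0.00287). The lowest day 6 library was above the highest day 1 library in each combination. Myocd reached 10 in no library of day 1 and passed the filter through the later groups, so the filter favours a rise. With no filter the adjusted p of Myocd was 2.53e-06 in OB, 5.98e-05 in OA and 0.00397 in ODR, and the calls held in the other alternatives tried as well. MEF had 19 and mESC was listed at 0, so the day 1 libraries were below MEF and the OB and OA libraries of day 6 above it.

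Genes of the same pathway outside the set moved both ways between day 1 and day 6. Of 21 other smooth muscle genes tested (24 in the list), 4 rose and 9 fell in OB, 3 rose and 6 fell in OA, and 2 rose and 6 fell in ODR. Over all genes, 16.7%, 17% and 12.6% rose and 17.1%, 17.6% and 12.5% fell in the same order. The list's median log2 fold change was -0.38 in OB, -0.25 in OA and -0.29 in ODR. Mylk, the kinase that phosphorylates the myosin light chain, rose to 117 ± 20.0 in OB at day 6, against 18 ± 1.41 at day 1 (SD, log2 fold change 2.62 ± 0.27, adjusted p = 1.42e-06). It rose by 2.52 ± 0.29 in OA and 3.29 ± 0.32 in ODR (adjusted p = 4.06e-06 and 1.52e-06). Des, the intermediate filament desmin, reached 1920.8 ± 38.0 in OB at day 6, against 213 ± 55.2 at day 1 (adjusted p = 6.46e-05). In OA it was 1105 to 2010 at day 6, against 178 to 246 at day 1. ODR stayed much lower, at 216 to 298 at day 6, against 162 to 220 at day 1. Myh11, the smooth muscle myosin heavy chain, fell to 15.25 ± 3.69 in OB at day 6, against 86.5 ± 13.4 at day 1 (-2.45 ± 0.37, adjusted p = 7.46e-05), and also fell in OA (-2.51 ± 0.39, adjusted p = 9.66e-05) and ODR (-2.34 ± 0.43, adjusted p = 0.000645). Kcnmb1, a potassium channel subunit of smooth muscle, was among those that fell in OA (-4.62 ± 0.61, adjusted p = 1.91e-05) and ODR (-3.56 ± 0.67, adjusted p = 0.000806).

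In the general actin cytoskeleton list all calls ran downward. Of 29 tested (30 in the list), 0 rose in any combination and 17 fell in OB, 17 in OA and 16 in ODR, with medians of -0.78, -0.81 and -0.84. For this and the next lists, the shares of all genes were 16.7%, 17% and 12.6% risen and 17.1%, 17.6% and 12.5% fallen. Csrp2, a LIM protein of smooth muscle, fell by 2.55 ± 0.19 in OB on the log2 scale (adjusted p = 3.21e-08) and Myl12a, a non-muscle myosin light chain, by 1.28 ± 0.14 (adjusted p = 1.72e-06). Among 18 regulators of the programme, 2 rose and 8 fell in OB, 2 rose and 8 fell in OA, and 0 rose and 6 fell in ODR. Klf4, a factor that represses smooth muscle genes and is also a reprogramming factor, was 80.2 ± 19.2 in OB at day 6, against 316 ± 21.9 at day 1 (-1.99 ± 0.33, adjusted p = 0.0002). Of 20 genes of the TGF-beta response and myofibroblast matrix, 0 rose and 6 fell in OB, 1 rose and 6 fell in OA, and 2 rose and 6 fell in ODR. Lox, which crosslinks collagen, was 436 ± 50.8 in OB at day 6, against 3964 ± 368 at day 1 (-3.19 ± 0.23, adjusted p = 2.27e-08).

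Markers of fibroblasts were also lower at day 6 in their summed level. The summed level of 18 fibroblast genes was 42397 to 55099 in OB, 55327 to 56707 in OA and 39809 to 49841 in ODR at day 6, against 62670 to 64865, 62403 to 76658 and 62166 to 75894 at day 1 and 82190 in MEF. Of these 18 genes 7 fell and 1 rose in OB, 5 fell and 1 rose in OA, and 3 fell and 1 rose in ODR, against the 17.1%, 17.6% and 12.5% of all genes that fell, and none was at 0 in all libraries of a group at either day. Skeletal muscle genes summed to 53 to 86 at day 6 and 179 to 356 at day 1, with 5 of 16 in the list passing the filter. Leukocyte genes (10 of 11 in the table) summed to 238 to 533 at day 6 and 607 to 714 at day 1. Epithelial genes summed to 27 to 163 at day 6 and 410 to 686 at day 1. Pluripotency genes summed to 444 to 716 in OB, 313 to 538 in OA and 107 to 126 in ODR at day 6. At day 1 these sums were 152 to 168, 94 to 114 and 109 to 133. Cardiac genes summed to 509 to 629, 470 to 543 and 559 to 612 in the same order. Day 1 had 447 to 545, 333 to 397 and 349 to 418. Endothelial and pericyte genes summed to 412 to 507, 523 to 580 and 710 to 774. Their day 1 sums were 981 to 1039, 656 to 713 and 596 to 671. The part of these markers in the fall of the contractile genes was not tested. In OA at day 14 the fibroblast sum was 76700, 18823 and 74434 in replicates 1 to 3, against 82190 in MEF. Acta2 was 708, 100 and 627 in these libraries, against 18690 in MEF. Of the 18 fibroblast genes, only Col1a1, Thy1, Pdgfra and Pdgfrb were checked singly in these libraries, and they stayed below MEF there. Most of the sum in replicates 1 and 3 came from the other genes of the list, whose levels are not given singly. Col1a1 was at most 5077, against 18690, and Thy1 at most 1490, against 2347. Pdgfra was at most 520, against 1206, and Pdgfrb at most 622, against 2175. How these levels bear on Acta2 was not tested.

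From day 6 to day 14 the members changed less. In OB 2 fell, where 28.2% of all genes fell, in OA 1 fell, against 4.08% of all genes, and in ODR 0 were called, against 3.95% of all genes (4 members had an unadjusted p below 0.05 in ODR). Lmod1 was 3, 2 and 7 in OB at day 14, against 17, 13, 6 and 9 at day 6 (-1.33 ± 0.36, adjusted p = 0.00397), with groups that overlapped. In OA it was 5, 4 and 7 at day 14, against 16, 11 and 17 at day 6 (-1.31 ± 0.38, adjusted p = 0.0405), a call lost in 12 of 17 alternatives and without the library labelled OA day 14 replicate 2 (-1.15, adjusted p = 0.113). Without that library Cnn2 was called higher in OA at day 14 (0.61, adjusted p = 0.0489), where 4.05% of all genes rose with it included. Lmod1 was below 10 in all day 14 libraries, and with no filter its adjusted p was 0.00538 in OB and 0.053 in OA. Myocd was 15, 25 and 18 in OB at day 14, against 51 to 63 at day 6, and fell by 1.57 ± 0.31 (adjusted p = 0.000342). Its libraries did not overlap, as in 57.8% of all genes. In OA the values of Myocd were 77, 34 and 83 at day 14 and in ODR 40, 23 and 29, and its change since day 6 did not pass the test there (0.45 ± 0.33, adjusted p = 0.449, and 0.53 ± 0.37, adjusted p = 0.489). Actg2 was 910, 1194 and 1268 in ODR at day 14, against 518 and 478 at day 6, without overlap, as in 37.3% of all genes. It missed the threshold (1.16 ± 0.35, adjusted p = 0.0746), which it passed in a fit of these groups alone (adjusted p = 0.0404). In OB, Actg2 was called higher at day 14 without OB day 14 replicate 1 (1.16, adjusted p = 0.000129), Tagln lower without OB day 14 replicate 3 (-1.25, adjusted p = 0.0462) and Cnn2 higher without OB day 6 replicate 1 (0.35, adjusted p = 0.0349). Without the library labelled OA day 14 replicate 2 in the pooled spread, Tagln and Tpm1 were also called lower in OB (adjusted p = 0.0442 and 0.0348). Acta2, Tagln and Cnn1 stayed at or below 708, 170 and 4 at day 14 in every library.

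Relative to MEF, the low level reached by day 6 was still present at day 14. At day 6, 8 members were more than 2-fold lower than MEF in every OB library, 9 in OA and 8 in ODR, against 10.3%, 11.2% and 11.9% of all genes. At day 14 the counts were 9 in OB, 7 in OA and 7 in ODR, against 13.5%, 8.85% and 11.6%. The median of the members' mean log2 differences from MEF at day 14 was -3.97 in OB, -3.92 in OA and -4.05 in ODR, and the medians of all genes lay between -0.01 and 0.07. Cnn2, Actg2 and Myocd were the members not counted as more than 2-fold lower in OA and ODR at day 14, and Myocd in OB. Cnn2 was still below its MEF value of 2216 there, at most 1378 in OA and 1310 in ODR. Actg2 was below its MEF value of 1312, at most 990 in OA and 1268 in ODR. Actg2 at day 14 differed from MEF by -1.79 in OB, -0.53 in OA and -0.24 in ODR on the log2 scale. Myocd was the single member counted higher than MEF, in OB at day 6, where 13.1% of all genes were higher, and at a 3-fold limit it was no longer counted. Without the library labelled OA day 14 replicate 2, Myocd was also counted higher in OA at day 14, at 77 and 83 against 19 in MEF, where 14.4% of all genes were higher. With BMP4 at day 6, 8 members were lower than MEF in OB and 9 in ODR, against 13.6% and 15.4% of all genes. Acta2 is at the ceiling in MEF, which limits the size its differences can take.

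The single libraries at day 9 and the stem cell library extend this series. At day 9, 8 members were lower than MEF in ODB without BMP4, 9 in ODDR without BMP4 and 8 in the library that carries both labels with BMP4, against 17.3%, 16.1% and 16.6% of all genes. Myocd was 62 in ODB and 140 in ODDR, against 19 in MEF, where 19.1% and 17.7% of all genes were higher than MEF. The ODDR value was the highest Myocd level in the series. Acta2 was 740 in ODB, 498 in ODDR and 146 with BMP4. In mESC all 10 members were lower than MEF, against 26.9% of all genes, with Actg2, Cnn1 and Myocd listed at 0 and Acta2 at 43. Acta2, Tagln, Tpm1, Tpm2, Cnn2, Actg2 and Myocd were higher in every reprogramming library than in mESC. So was Myl9, except that the BMP4 library of day 9 and mESC both had 11.

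**Figure D3:**
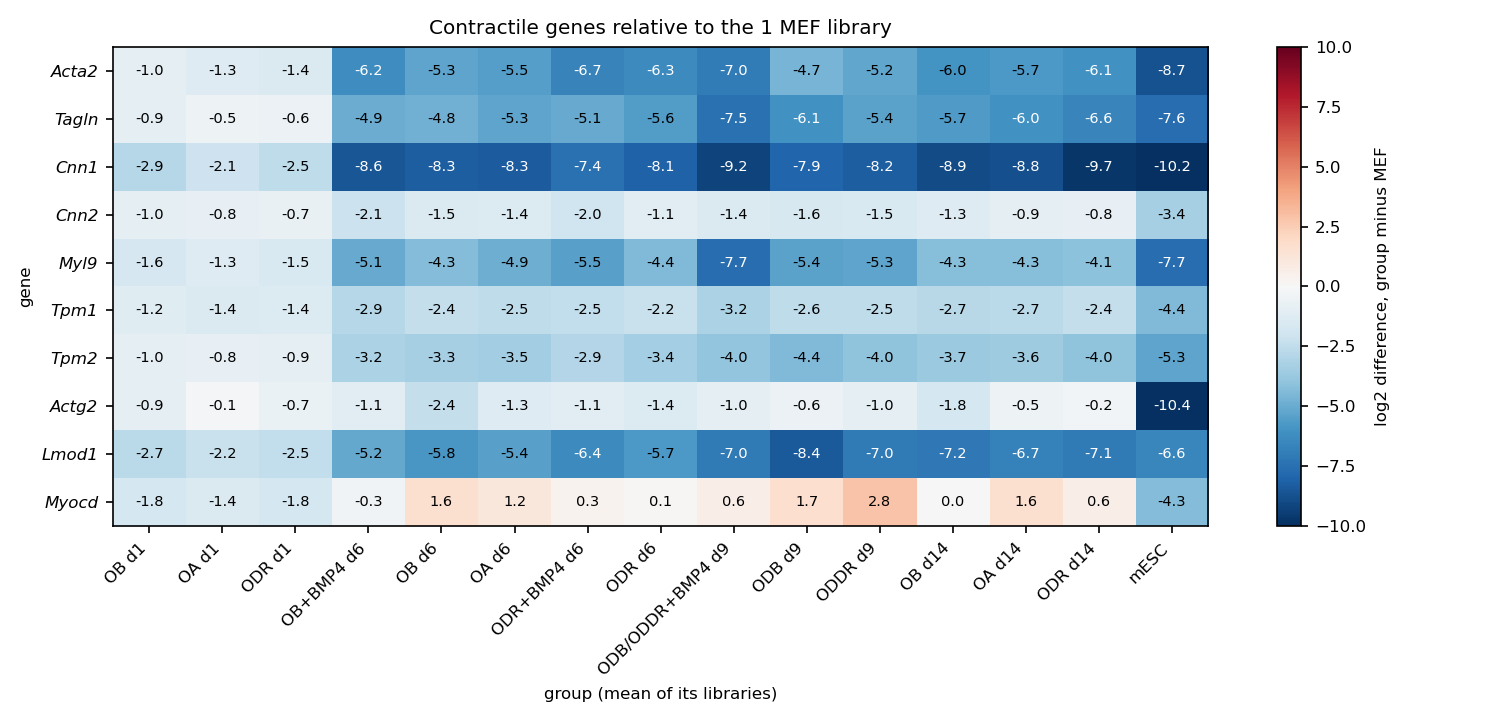
Mean log2 difference from the 1 MEF library for each member (rows) in each group (columns), blue for lower and red for higher than MEF. Cnn1 is the darkest row at day 6, and Myocd is the only row with red cells.

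At day 1 no difference between factor combinations passed the test in any member. None was called in OB against ODR (0.88% of all genes were called), OA against ODR (0.0649%) or OB against OA (1.4%), and no member had an unadjusted p below 0.05 in these comparisons. Replicate 2 was above replicate 1 in all 3 combinations for 6 members (Acta2, Tagln, Cnn1, Myl9, Tpm1 and Actg2). With the replicate number as a block at each day, an alternative chosen after seeing the data, again no member was called at day 1. Of the members 1 then had an unadjusted p below 0.05, Actg2 in OB against OA (-0.72 ± 0.30, adjusted p = 0.324), at 624 and 831 in OB and 1106 and 1281 in OA. The 95% interval of the log2 difference between OB and ODR was -1.03 to 1.90 for Acta2, -1.61 to 0.95 for Tagln and -0.32 to 0.70 for Tpm1. At day 6 the 1 member higher in OB than in ODR was Myocd, against 5.74% of all genes higher, at 58.5 ± 5.45 in OB and 20.5 ± 3.54 in ODR (SD, n = 4 and 2, log2 fold change 1.47 ± 0.35 SE, adjusted p = 0.0116). Its groups did not overlap, as in 36.1% of all genes, and the call was lost without either ODR library (adjusted p = 0.132 and 0.0591). A fit of these groups alone called 4 members, with Acta2 (1.06, adjusted p = 0.0271) and Tagln (0.75, adjusted p = 0.0478) higher and Actg2 lower in OB (adjusted p = 0.0154). In that fit the count over all genes, in either direction, stayed within 1.5 times of the 1461 called in the main fit. OB against OA at day 6 had 1 member lower, against 3.35% of all genes. That member was Actg2, at 250 ± 43.2 in OB and 527 ± 34.4 in OA (-1.09 ± 0.29, adjusted p = 0.0304). Its groups did not overlap, as in 23.7% of all genes. That call was lost in 6 of 20 alternatives (adjusted p up to 0.0959).

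By day 14, Actg2 was lower in OB than in either other combination. It was 176, 654 and 468 in OB, 831, 910 and 990 in OA and 910, 1194 and 1268 in ODR. The OB libraries were all below those of OA and ODR. Over all genes, OB libraries did not overlap with OA in 50.9% and with ODR in 62.1%. Against ODR the log2 fold change was -1.56 ± 0.31 (adjusted p = 0.000407) and it held in all 19 alternatives, at -1.01 without OB day 14 replicate 1. Against OA it was -1.26 ± 0.31 (adjusted p = 0.00263), at -0.71 without OB day 14 replicate 1, and lost in a fit of these groups alone (adjusted p = 0.0911). The difference between OB and ODR was larger at day 14 than at day 1 by -1.35 ± 0.50 (adjusted p = 0.0435, where 16.5% of all genes had a lower difference), which was lost in 8 of 22 alternatives, among them without OB day 14 replicate 1 (-0.80, adjusted p = 0.0565). Cnn2 was the other member lower in OB than in ODR, at 920 ± 56.2 and 1232.3 ± 70.9 (-0.42 ± 0.17, adjusted p = 0.0441), with no overlap, and its call was lost in 12 of 19 alternatives (adjusted p up to 0.121). These 2 members stand against 26.7% of all genes lower in OB than in ODR. Without the library labelled OA day 14 replicate 2 in the pooled spread, Tpm1 was also called lower in OB than in ODR (-0.35, adjusted p = 0.0337). Markers of other cells differed as well, where 28% of all genes were higher and 26.7% lower in OB than in ODR. Pluripotency genes summed to 1498 to 1538 in OB and 194 to 242 in ODR, with 5 of 8 tested higher, and epithelial genes to 95 to 252 in OB and 12 to 17 in ODR, with 6 of 10 higher. Of 10 endothelial and pericyte genes 6 were lower and 1 higher, and of 18 fibroblast genes 4 were lower and 4 higher, with fibroblast sums of 28464 to 35102 in OB and 33490 to 45353 in ODR. Against OA, 5 of 8 pluripotency genes were higher in OB and 1 was lower, at sums of 537 to 866 in OA. Of all 13860 genes tested, 3675 were higher and 3489 lower in OB than in OA. The part of these markers in the Actg2 and Cnn2 differences was not tested.

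Against OA, OB at day 14 had 2 members lower, where 25.2% of all genes were lower: Actg2 and Myocd. Myocd was 15, 25 and 18 in OB and 77, 34 and 83 in OA (-1.62 ± 0.33, adjusted p = 0.000548). The lowest OA value of Myocd, 34, came from the library labelled OA day 14 replicate 2, and every OB library lay below it. In that library Acta2 was 100, Myl9 48 and Tpm1 954, against 627 or more, 202 or more and 1782 or more in the other OA libraries of that day. In the same library the summed fibroblast genes were 18823, against 76700 and 74434 in the other OA libraries of that day and 28464 to 35102 in OB, and the summed epithelial genes 1264, against 152 and 91, and their part in these values was not tested. Without the library labelled OA day 14 replicate 2, 5 members were lower in OB than in OA, with Acta2 (-1.18, adjusted p = 0.0277), Cnn2 (-0.50, adjusted p = 0.0281) and Tpm1 (-0.38, adjusted p = 0.0418) added. The 25.2% belongs to the fit with that library. With 1 library left out in turn, 6005 to 7194 genes were called in either direction, against 7164 with none left out.

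No member was called between OA and ODR at day 6 (2.22% of all genes called, 1 member with an unadjusted p below 0.05) or day 14 (5.35%, 1 member). Myocd was called at day 6 when the shared library was kept as ODR without BMP4 (1.34, adjusted p = 0.0339). It was the nearest at day 14, at 64.7 ± 26.7 in OA and 30.7 ± 8.62 in ODR (0.99 ± 0.33, adjusted p = 0.0987). Without the library labelled OA day 14 replicate 2, Myocd (1.39, adjusted p = 0.0139) and Tpm2 (0.76, adjusted p = 0.0325) were higher in OA than in ODR. The count over all genes without that library, in either direction, stayed within 1.5 times of the 741 called with it. Pathway genes outside the set differed between OB and ODR at day 14 in both directions. Of 29 actin cytoskeleton genes 3 were higher and 9 lower in OB, of 21 other smooth muscle genes 1 and 7, of 18 regulators 3 and 6, and of 20 TGF-beta and myofibroblast genes 3 and 6, against 28% of all genes higher and 26.7% lower. Mylk was 96.3 ± 36.6 in OB and 474 ± 43.5 in ODR (-2.36 ± 0.26, adjusted p = 6.72e-07), and Tgfb1, the TGF-beta ligand, 167 ± 29.6 in OB and 531 ± 47.4 in ODR (-1.67 ± 0.15, adjusted p = 7.57e-08). Csrp2 was 221 ± 4.16 in OB and 64.7 ± 1.53 in ODR (1.76 ± 0.18, adjusted p = 2.61e-07). Mkl1, a coactivator related to Myocd, was lower in OB (-0.69 ± 0.13, adjusted p = 0.000271) and its relative Mkl2 higher (0.38 ± 0.15, adjusted p = 0.0337).

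In OB at day 6, 3 of the 10 members were called between libraries with and without BMP4, close to the shares of all genes given next. Actg2 rose, where 15% of all genes rose, and Cnn2 and Myocd fell, where 17.5% of all genes fell. Actg2 was 671 and 550 with BMP4, against 303, 268, 212 and 218 without (1.29 ± 0.33, adjusted p = 0.00645). Myocd was 18 and 12 with BMP4, against 62, 63, 58 and 51 without (-1.92 ± 0.35, adjusted p = 0.000496). Cnn2 was 540 and 475 with BMP4, against 1132, 719, 692 and 748 without (-0.67 ± 0.18, adjusted p = 0.00863). In all 3 genes the libraries with and without BMP4 did not overlap, as in 52.2% of all genes. The Actg2 call was lost without OB with BMP4 replicate 1 (adjusted p = 0.0716), and that of Cnn2 without replicate 2 (adjusted p = 0.106) and in a fit of these groups alone (adjusted p = 0.0597). Acta2 was 226 and 270 with BMP4, below the 395 to 660 without, and did not pass the test (-0.97 ± 0.60, adjusted p = 0.238), but was called lower in the fit of these groups alone (adjusted p = 0.0172). Tpm1 was called lower with BMP4 without the library labelled OA day 14 replicate 2 in the pooled spread (-0.47, adjusted p = 0.0154). Fibroblast genes summed to 18603 and 20119 with BMP4, against 42397 to 55099 without, with 10 of 18 lower and 3 higher, and epithelial genes to 1168 and 2257, against 83 to 127. Pluripotency genes summed to 1250 and 1815 with BMP4, against 444 to 716 without, and cardiac genes to 1221 and 1258, against 509 to 629. Their part in the changes of Actg2, Cnn2 and Myocd was not tested.

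In ODR 1 member, Cnn2, was lower with BMP4, where 6.46% of all genes were lower. It was 557 in the single library with BMP4, against 852 and 1184 without (-0.85 ± 0.26, adjusted p = 0.0384), and the library with BMP4 is assumed to vary like the other groups. This call was lost when the library deposited under both labels was kept under both (-0.50, adjusted p = 0.578) and when ODR day 6 replicate 2 was left out (-0.61, adjusted p = 0.238), among 7 of 15 alternatives. Myocd was 24 with BMP4, against 18 and 23 without, and Actg2 608 against 518 and 478. The effect of BMP4 in OB minus that in ODR was -2.14 ± 0.61 for Myocd and missed the threshold (adjusted p = 0.105). No member was called in that comparison, against 1.26% of all genes (1 member had an unadjusted p below 0.05), and Myocd was called in a fit of these groups alone (adjusted p = 0.0268) and without the library labelled OA day 14 replicate 2 in the pooled spread (adjusted p = 0.0273). Among the pathway lists with BMP4 in OB, 5 of 29 actin cytoskeleton genes rose and 3 fell. Of 21 other smooth muscle genes 3 rose and 3 fell, and of 18 regulators 6 rose and 3 fell. Of 20 TGF-beta and myofibroblast genes 6 rose and 5 fell. Over all genes 15% rose and 17.5% fell. Klf4 was 456 ± 78.5 with BMP4 and 80.2 ± 19.2 without (2.51 ± 0.33, adjusted p = 2.9e-05), and Csrp2 380 ± 0.707 and 59.8 ± 14.5 (2.68 ± 0.19, adjusted p = 5.2e-08). Des was 383 ± 4.24 with BMP4 and 1920.8 ± 38.0 without (-2.32 ± 0.48, adjusted p = 0.00118).

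**Figure D4:**
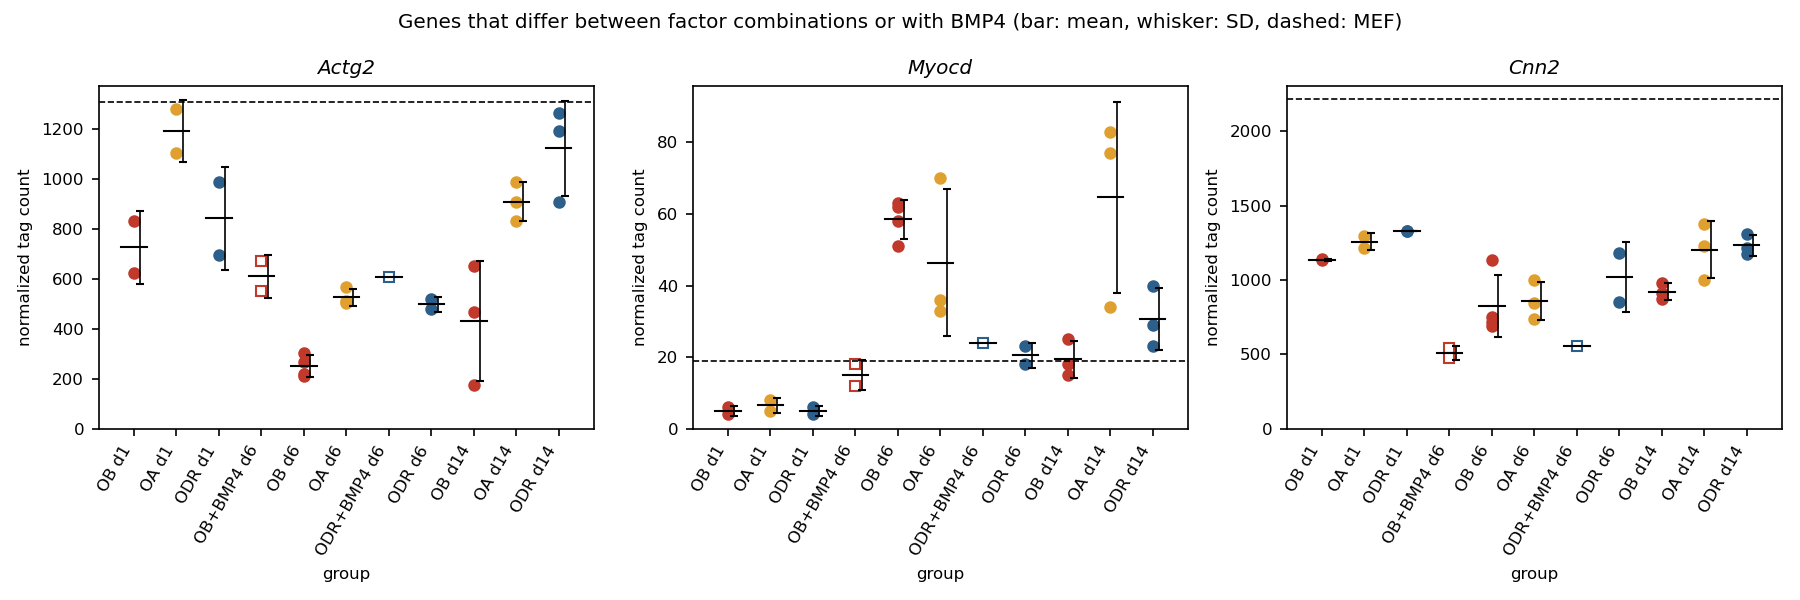
Normalized tag count of Actg2, Myocd and Cnn2 in every library of the 11 groups in the fit, with bars for the mean, whiskers for the SD and a dashed line for MEF. Open squares had BMP4. Actg2 lies between 212 and 303 in OB at day 6 and between 550 and 671 with BMP4, and Myocd lies between 51 and 63 in OB at day 6 and at 12 and 18 with BMP4.

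The members split by how their group means ran over the 11 groups in the fit. As a description, the Pearson correlation of a member's profile with the mean profile of the others was 0.97 for Acta2, 0.96 for Myl9, 0.93 for Cnn1, 0.93 for Tpm1, 0.91 for Tagln, 0.91 for Tpm2 and 0.88 for Lmod1. It was 0.57 for Cnn2, 0.44 for Actg2 and -0.81 for Myocd. These points share libraries, and the day 1 groups lie apart from the later ones. Outside the set, the genes whose group means ran most like the members' mean profile were Cxcl1, a chemokine, Rnf150, Tm4sf1, 4833412C05Rik and Cnst, with r of 0.99, 0.99, 0.98, 0.98 and 0.98 over the same 11 groups. Cxcl1 averaged 101 in OB at day 1, 9.25 at day 6 and 8 at day 14, and Tm4sf1 704, 180 and 123. MEF was not among the 11 groups. There Cxcl1 was 20, Tm4sf1 527 and Cnst 198, each below its OB day 1 mean (101, 704 and 327). Rnf150 was 664 and 4833412C05Rik 37 in MEF, above their OB day 1 means (233.5 and 11.5).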

How the data were processed

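The series comprises 35 mouse libraries of poly-A RNA. Per the submitters' processing notes, bcl2fastq, Bowtie2 2.2.5 and RSEM were used with build mm10. The deposited values are whole numbers in a score unit, a normalized tag count per gene, whose normalization step the sources used here leave unstated. Column totals lie between 4255921 and 4398785 with 9 or 10 genes at the ceiling, so the values are not read counts and no counting interval is given.

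After a log2(value + 1) transform, genes at 10 or more in at least 2 of 27 libraries were kept. With limma 3.58.1 (R 4.3.3), 1 model gave each of 11 groups its mean, leaving 16 residual degrees of freedom, with the spread pooled over groups. Tests were two-sided, and an adjusted p below 0.05 in a comparison was called, in 19 comparisons of which 2 were interactions. The procedure was tested on simulated data. Comparisons share groups, so their results are not independent. Alternatives changed the pseudocount, the filter, the fold from MEF, the groups fitted, the treatment of the identical library and the replicate block, and left out each library. A block within each day was added after seeing the data.

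The members and lists were chosen with earlier results of these data known. Lists overlap in part. Beyond the 10 members, the text names Kdm2b and Kdm2a as a check of the labels, up to 3 called genes in each direction per list and comparison, and the 5 genes most like the members' mean profile. Marker genes are named as checks of cell type. Replicate numbers were not taken to pair libraries.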

Additional observations from a re-analysis of the deposited data

Results flagged for a closer look

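In OB at day 6, replicate 1 stood apart from the other 3 libraries in 3 members: Cnn2 at 1132, against 692 to 748, Tpm1 at 2219, against 1574 to 1666, and Tpm2 at 288, against 192 to 199. For each member the only group of 4 libraries was tested, 10 tests in all, and chance alone would mark about 1 in 20 of them. Without this library the rise of Cnn2 in OB between day 6 and day 14 passed the test (0.35, adjusted p = 0.0349).

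The difference of Actg2 between OB and ODR was more negative at day 14 than at day 1, by -1.35 on the log2 scale (adjusted p = 0.0435, limma). The direction at day 14 was shown by 3 of 3 OB libraries, all below the 3 ODR libraries, and 62.1% of all genes did not overlap there.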

How the results depend on the processing

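Of 42 called member effects, 29 held in every alternative and 13 were lost in at least 1. Between day 1 and day 6, 24 of 28 held. The cause of the other changes was not tested. With 1 library left out the direction turned for Acta2 (-1.18 to 0.22, reported at -0.28) and Tpm1 (-0.38 to 0.095, reported at -0.07) in OB against OA at day 14, neither of them called. The count of called members moved from 1 to 0 in OA day 14 against day 6 with no filter, only the groups compared, a pseudocount of 0.1, the replicate block, or the shared library kept. In OB against ODR at day 14 it moved from 2 to 1 with no filter, the block (also within each day) or the shared library kept. It moved from 2 to 1 in OB against OA at day 14 in a fit of these groups alone and from 1 to 0 in OB against OA at day 6 under the block. In OB against ODR at day 6 it moved from 1 to 4 in a fit of these groups alone and to 2 with the shared library as ODR without BMP4 or under both labels. It moved from 0 to 1 in OA against ODR at day 6 and in ODR day 14 against day 6 with the shared library kept as ODR without BMP4, and from 0 to 1 in ODR day 14 against day 6 and in the BMP4 interaction in fits of the groups alone. ODR with BMP4 went from 1 to 0 with no filter, the groups alone, the block within each day or the shared library kept, and the interaction over days from 1 to 0 with no filter or the groups alone.

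With libraries left out in turn, called members ranged from 8 to 10 in OA, 9 to 10 in OB and 7 to 8 in ODR between day 1 and day 6. They ranged from 0 to 1 in OA and 2 to 4 in OB between day 6 and day 14. For OB they ranged from 0 to 1 against ODR and OA at day 6, 1 to 3 against ODR and 2 to 5 against OA at day 14, and 2 to 4 with BMP4. OA against ODR at day 14 ranged from 0 to 2, and both interactions and ODR with BMP4 from 0 to 1.

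Over all alternatives, left-out libraries among them, counts over all genes, on which the background shares rest, moved by more than 1.5 times in 16 of 19 comparisons. At day 1 they were 13 to 262 for OB against ODR (122), 2 to 47 for OA against ODR (9) and 12 to 408 for OB against OA (194). At day 6 they were 520 to 2109 (1461), 28 to 645 (308) and 541 to 1624 (1009) in the same order, at day 14 5 to 1228 for OA against ODR (741) and 4563 to 7410 for OB against OA (7164), and with BMP4 2490 to 5153 in OB (4504), 0 to 2467 in ODR (1598) and 44 to 475 for the interaction (174). Between day 1 and day 6 they were 2762 to 5397 in OB (4679), 2810 to 5539 in OA (4790) and 1903 to 4252 in ODR (3484), and between day 6 and day 14 4 to 1783 in OA (1128) and 152 to 1123 in ODR (548).

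Members lower than MEF at day 1 numbered 2 in each combination at 3-fold and 8 in OB at 1.5-fold, and 5 to 8 in OB with a library left out. Shares of all genes at these settings are not given. Myocd was higher than MEF in OA at days 6 and 14 and in the shared day 9 library at 1.5-fold (1 member each), in OA at day 14 by limma with 1 MEF library (1), and in OB at day 6 not at 3-fold (0). Deviations of same-numbered libraries had a median r of 0.03 over all groups (-0.16 to 0.32, 110 pairs). Within days the median was 0.22 at day 1 (0.20 to 0.24), -0.05 at day 6 (-0.16 to 0.25) and 0.09 at day 14 (0.03 to 0.32), so same-numbered libraries deviated together at day 1, a hint from the data and not from the labels. A replicate block within each day, added after seeing the data, called 0 members at day 1 in each comparison and ended the calls of Cnn2 in OB against ODR at day 14 (adjusted p = 0.0678) and in ODR with BMP4 (adjusted p = 0.0578). The block over all days ended the calls of Lmod1 in OA day 14 against day 6, Cnn2 in OB against ODR at day 14 and in OB day 6 against day 1 (adjusted p = 0.108), and Actg2 in OB against OA at day 6, and no other member call.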

Other observations

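The library deposited both as ODR day 6 and as ODR with BMP4 day 6 had 214 for Acta2, 114 for Tagln, 740 for Cnn2, 436 for Actg2 and 11 for Myocd. Its Myocd value lay below all other ODR libraries of that day, with or without BMP4 (18 to 24), and its Cnn2 value lay between the library with BMP4 (557) and those without (852 and 1184).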
